A study of Homo sapiens with 6 samples.

Results

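GDF15, the ligands of the transforming growth factor beta (TGF-beta) family, their receptors and the SMAD proteins that carry their signal were examined as 10 genes chosen by symbol: GDF15, TGFB1, TGFB2, INHBA, TGFBR1, TGFBR2, SMAD2, SMAD3, SMAD4 and SMAD7. All 10 were found among the 20289 genes of the deposited table by Ensembl identifier. The cells were RKO, a human colorectal cancer line in wide use, and their mRNA was sequenced. The groups were RKO cells with a short hairpin RNA against TRMT6 (shTRMT6, 3 libraries) and RKO cells with a control hairpin, which the labels also call WT (shControl, 3 libraries). TRMT6 is a subunit of the enzyme that methylates adenosine to 1-methyladenosine in tRNA, and the comparison asks which mRNAs differ when it is knocked down. The hairpin sequences, the time after knockdown and whether the cells were pools or clones are not stated in the sources used here, and nothing says that replicates were separate cultures. The p-values below therefore rest on a spread among libraries that may be only technical.

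TGF-beta ligands are secreted as latent precursors, and the activated dimer binds the type II receptor TGFBR2, which phosphorylates the type I receptor TGFBR1. TGFBR1 then phosphorylates SMAD2 and SMAD3, which join SMAD4 and enter the nucleus, while SMAD7 is induced by the pathway and blocks the receptor. In colon epithelium the pathway restrains growth, and microsatellite-unstable colorectal cancers, the class to which RKO belongs, often carry frameshifts in a coding repeat of TGFBR2, which expression values do not read. GDF15 is a distant member of the family that is induced by the integrated stress response, among other stresses; it acts on another receptor, GFRAL with RET, which is known from the hindbrain.

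Values are FPKM, fragment counts divided by gene length and sequencing depth, so levels of different genes can be compared. Library depth, roughly estimated from the steps of low values, was 18 to 20.2 M fragments (mega) in shTRMT6 and 21.4 to 28.8 M in shControl. TRMT6 itself had 1.58, 1.73 and 1.09 FPKM in shTRMT6, against 14.43, 17.96 and 16.85 FPKM in shControl, in the direction of the labels (log2 fold change -2.82, SE 0.13, limma adjusted p = 4.33e-08). Of 9 epithelial and colonic markers 4 had a mean of at least 1 FPKM (EPCAM, KRT8, KRT18 and CDX2), whereas CDH1, KRT19, KRT20, CDX1 and VIL1 were listed at 0 in all libraries. Their summed level was 201 to 213.6 FPKM in shTRMT6 and 123.6 to 156.1 FPKM in shControl, a sum made up mostly of KRT18, with a mean of 186.3 FPKM in shTRMT6 and 118.4 FPKM in shControl. EPCAM was called higher too (log2 fold change 0.50, limma adjusted p = 0.0282), and KRT8 and CDX2 did not pass (adjusted p = 0.687 and 0.811). Summed fibroblast markers reached at most 0.09 FPKM in shTRMT6 and ran from 0.1 to 1.33 FPKM in shControl. The highest sum was that of shControl replicate 3, where COL1A1 had 0.65 FPKM, against 0.13 and 0.05 FPKM in the other controls. Immune and endothelial markers stayed at or under 0.36 FPKM in every library. The part of these marker differences in the results was not tested. A gene was tested if its 6 libraries averaged 1 FPKM or more (10592 genes), with limma on log2(FPKM + 1), a scale that understates the change of low genes. Of these, 35.4% passed an adjusted p of 0.05, 19.3% higher and 16.1% lower in shTRMT6.

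The stretches before the start sites of GDF15 and TGFBR2 are shown because these 2 genes changed most among the 10, and that of TGFB1 because it is the most abundant member. Each holds the 250 bases upstream of a RefSeq start site (GRCh38.p14), 5′ to 3′ on the gene's strand, and stops before that site. Capitals mark matches on either strand to the GC box GGGCGG, the SMAD box CAGAC or the EGR1 site GCGTGGGCG. GDF15 lies at chr19:18385908-18386157, plus strand; TGFBR2 at chr3:30606351-30606600, plus strand, before the nearer of its 2 RefSeq start sites; and TGFB1 at chr19:41353923-41354172, minus strand.

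GDF15: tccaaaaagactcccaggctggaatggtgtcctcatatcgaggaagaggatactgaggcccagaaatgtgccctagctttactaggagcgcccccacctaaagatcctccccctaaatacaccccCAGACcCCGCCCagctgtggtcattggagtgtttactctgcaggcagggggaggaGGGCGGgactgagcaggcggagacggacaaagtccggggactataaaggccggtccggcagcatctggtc

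TGFBR2: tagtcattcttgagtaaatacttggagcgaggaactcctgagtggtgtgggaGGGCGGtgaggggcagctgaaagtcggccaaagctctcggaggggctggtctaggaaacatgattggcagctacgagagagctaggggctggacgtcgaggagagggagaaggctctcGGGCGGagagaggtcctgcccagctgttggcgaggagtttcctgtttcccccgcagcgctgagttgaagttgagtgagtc

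TGFB1: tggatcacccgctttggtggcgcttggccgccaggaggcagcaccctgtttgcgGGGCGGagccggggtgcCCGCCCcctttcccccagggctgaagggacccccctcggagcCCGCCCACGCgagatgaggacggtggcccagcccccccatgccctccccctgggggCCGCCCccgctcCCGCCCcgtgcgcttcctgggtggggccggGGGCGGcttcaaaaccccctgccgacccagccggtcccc

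GDF15 holds 2 GC boxes, at -119 and -70 from the start site, and 1 SMAD box at -125. TGFBR2 holds GC boxes at -198 and -80, and TGFB1 holds 6, the match at -137 overlapping its EGR1 site. Among 35116 RefSeq start sites, 42.6% of such 250-base stretches hold a GC box, 38.0% a SMAD box and 0.72% the EGR1 site. The SMAD palindrome GTCTAGAC, found in 0.182% of them, and the cyclic AMP element TGACGTCA, found in 1.65%, have no match in the stretches of the 10 members. The 3 printed stretches also hold no match to its shorter form TGACG (21.2% of all stretches), the AP-1 site TGANTCA (6.57%) or the C/EBP-ATF composite TGATGNAA (3.14%).

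Among the 10 members, 8 reached the level for testing. GDF15 and SMAD2 were higher in shTRMT6, TGFBR2 was lower, and 5 members did not pass. Of these 5, TGFBR1 passed when the replicate number was added to the model as a block (limma adjusted p = 0.0108). The 3 members called of 8 tested stand beside 35.4% of all tested genes, and the 4 members whose groups did not overlap stand beside 48.3% of all tested genes, so the share of members that moved was near that of genes in general. The members' median log2 fold change was 0.11, against 0.02 for all tested genes. The remaining members, TGFB2 and INHBA, were below the level for testing.

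**Figure D1:**
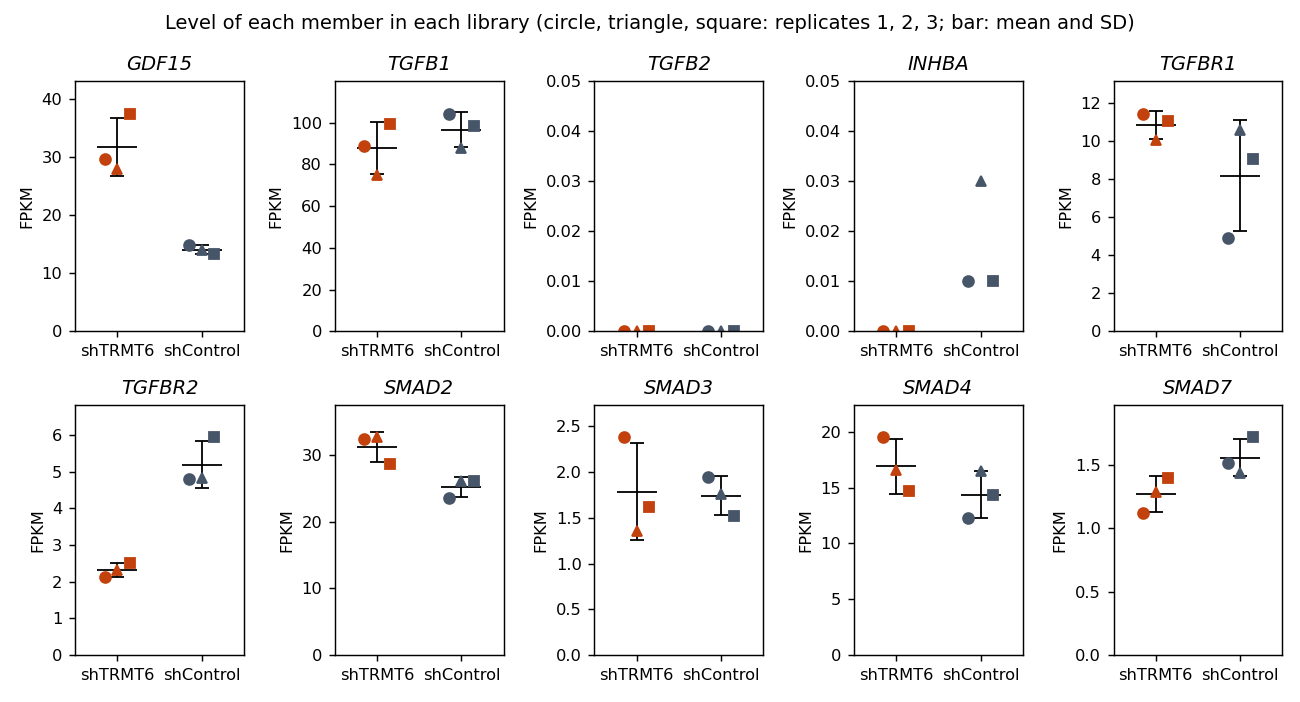
FPKM of the 10 members in the 3 shTRMT6 and 3 shControl libraries, each panel with its own axis from 0; points are single libraries, horizontal bars the mean and error bars the SD, omitted for TGFB2 and INHBA. The groups do not overlap for GDF15, TGFBR2, SMAD2 and SMAD7 among the tested members, and shControl replicate 1 lies far below the other controls for TGFBR1.

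Of the ligands, GDF15 alone rose. GDF15 (ENSG00000130513; chromosome 19, bases 18374731 to 18389176, plus strand, GENCODE release 29 on GRCh38) had 29.81, 28.06 and 37.55 FPKM in shTRMT6, against 14.85, 13.94 and 13.29 FPKM in shControl. In these bulk samples, more cells expressing a gene and more RNA per cell cannot be told apart. Every shTRMT6 library stood well above every shControl library, and the spread was wider in shTRMT6. GDF15 averaged 31.8 ± 5.05 FPKM in shTRMT6 and 14.0 ± 0.784 FPKM in shControl (SD, n = 3 each), 2.27-fold higher (log2 fold change 1.12, SE 0.12, limma adjusted p = 4.27e-05). An exact two-sided permutation test of GDF15 gave p = 0.1, below which a design of 3 against 3 cannot go. Of the 10592 tested genes, 54 (0.51%) had a higher log2 fold change. In the order of levels GDF15 was second of the members in shTRMT6, where its range overlapped that of SMAD2, and, behind SMAD2 and SMAD4, the next in shControl, where it overlapped SMAD4.

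TGFB1, the prototype TGF-beta ligand, was the most abundant member in both groups. TGFB1 (ENSG00000105329; chromosome 19, bases 41301587 to 41353911, minus strand) had 88.95, 74.8 and 99.44 FPKM in shTRMT6, against 104.33, 87.65 and 98.21 FPKM in shControl. The groups overlapped, with replicate 2 the lowest in each, and the difference did not pass (log2 fold change -0.15, 95% interval -0.39 to 0.10, limma adjusted p = 0.34). Its sign turned with a correction for GC content (0.0067). TGFB1 shares 6.64% of its exon bases with HNRNPUL1 on the opposite strand, and no strand setting was given. TGFB2, a second TGF-beta ligand, was listed at 0 in all 6 libraries. INHBA, the subunit of activin A, was listed at 0 in all shTRMT6 libraries, against 0.01, 0.03 and 0.01 FPKM in shControl, and neither gene was tested.

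Within single libraries the GDF15 level was 0.335, 0.375 and 0.378 times the TGFB1 level in shTRMT6, against 0.142, 0.159 and 0.135 times in shControl. These ratios, chosen after the values were seen, did not overlap. They restate the separation of GDF15 itself and add no separate support.

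The receptors differed from each other. TGFBR2 (ENSG00000163513; chromosome 3, bases 30606502 to 30694142, plus strand), the ligand-binding type II receptor, had 2.13, 2.31 and 2.52 FPKM in shTRMT6, against 4.81, 4.83 and 5.94 FPKM in shControl. The gap between the groups was wider than the range of either group. TGFBR2 averaged 2.32 ± 0.195 FPKM in shTRMT6 and 5.19 ± 0.647 FPKM in shControl (SD, n = 3 each), 2.24-fold lower (log2 fold change -0.90, SE 0.13, limma adjusted p = 0.000266). Only 87 tested genes (0.821%) had a lower log2 fold change.

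TGFBR1 (ENSG00000106799; chromosome 9, bases 99104038 to 99154192, plus strand), the type I receptor kinase, had 11.45, 10.04 and 11.05 FPKM in shTRMT6, against 4.93, 10.58 and 9.05 FPKM in shControl. shControl replicate 1 read at about the level of TGFBR2 in that library, while the other controls lay close to the shTRMT6 libraries and one of them above shTRMT6 replicate 2. The difference did not pass (log2 fold change 0.42, 95% interval 0.01 to 0.84, limma adjusted p = 0.104). With a replicate block it passed (adjusted p = 0.0108), and without shControl replicate 2 it passed too (log2 fold change 0.62, adjusted p = 0.0156). Without shControl replicate 1 the difference was 0.13 (adjusted p = 0.356).

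That library stood apart by base composition. Per 10 points of transcript GC content its deviation from the mean of the 6 libraries rose by 0.22 in log2 value, against -0.15 to -0.02 in shTRMT6 and -0.0046 and 0.0337 in the other controls. The transcript of TGFBR1 has 39.0% GC, that of SMAD2 40.2%, that of SMAD4 41.1%, and that of GDF15 62.9%, against a median of 48.8% over tested genes. With each library's trend on GC removed, the log2 fold change was 1.27 for GDF15 (limma adjusted p = 2.97e-05) and -0.95 for TGFBR2 (adjusted p = 0.000217). It was 0.18 for TGFBR1 (adjusted p = 0.387). The part of base composition in the uncorrected values was not tested.

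The level of TGFBR2 was 0.186, 0.23 and 0.228 times that of TGFBR1 in the shTRMT6 libraries, against 0.976, 0.457 and 0.656 times in the shControl libraries, ratios chosen after the values were seen. The groups did not overlap, and the spread was far wider in shControl, through TGFBR1 in replicate 1. TGFBR2 itself already separated the groups, so the ratio adds no separate support.

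**Figure D2:**
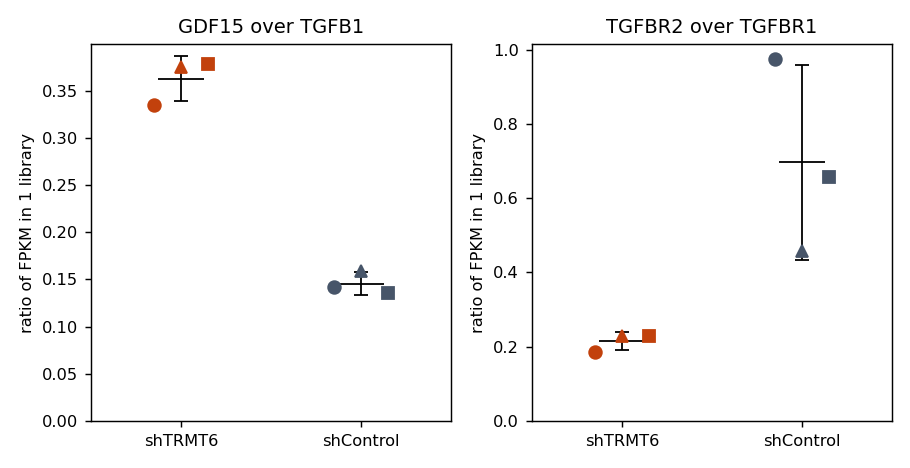
Ratio of the FPKM of 2 members within each library, GDF15 over TGFB1 on the left and TGFBR2 over TGFBR1 on the right, in shTRMT6 and shControl; points are libraries (circle, triangle and square for replicates 1, 2 and 3), bars the mean and SD. The shTRMT6 libraries lie at 0.335 to 0.378 against 0.135 to 0.159 in shControl on the left, and at 0.186 to 0.23 against 0.457 to 0.976 on the right.

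Of the 4 SMADs among the members, SMAD2 alone passed the test, by a small margin. SMAD2 (ENSG00000175387; chromosome 18, bases 47808957 to 47931146, minus strand), a receptor-activated SMAD, had 32.42, 32.68 and 28.68 FPKM in shTRMT6, against 23.53, 26.18 and 26.06 FPKM in shControl. The groups did not overlap, and the gap between them was of about the size of the range of the controls. SMAD2 averaged 31.3 ± 2.24 FPKM in shTRMT6 and 25.3 ± 1.497 FPKM in shControl (SD, n = 3 each), 1.24-fold higher (log2 fold change 0.30, SE 0.10, limma adjusted p = 0.0354). The call ended with the GC correction, where the log2 fold change was 0.07 (adjusted p = 0.494), and without shTRMT6 replicate 1 (0.139) or 2 (0.135) or shControl replicate 1 (0.0611), 2 (0.0596) or 3 (0.0634). Over 17 alternatives its adjusted p ran from 0.00922 to 0.494.

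SMAD3 (ENSG00000166949; chromosome 15, bases 67063763 to 67195195, plus strand), the other receptor-activated SMAD of the TGF-beta branch, had 2.38, 1.36 and 1.62 FPKM in shTRMT6, against 1.95, 1.76 and 1.52 FPKM in shControl. The highest and the lowest of the 6 values were both in shTRMT6, and the log2 fold change was 0.01 (95% interval -0.32 to 0.33, limma adjusted p = 0.97), with a sign that turned under 4 alternatives. SMAD2 was the more abundant of the pair in every library, by 12.1 to 24.0 times.

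SMAD4 (ENSG00000141646; chromosome 18, bases 51028394 to 51085045, plus strand), the common partner, had 19.51, 16.54 and 14.66 FPKM in shTRMT6, against 12.28, 16.5 and 14.35 FPKM in shControl. The groups overlapped and the difference did not pass (log2 fold change 0.22, 95% interval -0.06 to 0.50, limma adjusted p = 0.206). SMAD4 shares 7.369% of its exon bases with AC091551.1, a gene on the same strand that is also in the table. SMAD7 (ENSG00000101665; chromosome 18, bases 48919853 to 48952052, minus strand), the inhibitory SMAD, had 1.12, 1.29 and 1.4 FPKM in shTRMT6, against 1.52, 1.44 and 1.72 FPKM in shControl. Every shTRMT6 library read below every control, but the difference of 1.23-fold did not pass (log2 fold change -0.17, 95% interval -0.45 to 0.10, limma adjusted p = 0.311), and it was -0.03 after the GC correction.

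**Figure D3:**
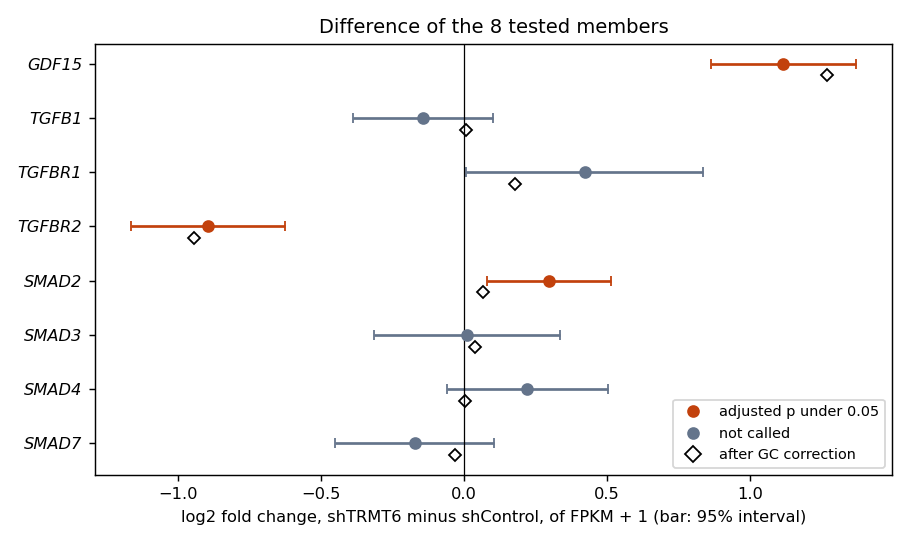
Log2 fold change of FPKM + 1, shTRMT6 minus shControl, of the 8 tested members with its 95% interval from limma; filled points in orange passed an adjusted p of 0.05, and open diamonds give the value after the GC correction. GDF15 at 1.12 and TGFBR2 at -0.90 keep their distance from 0 after the correction, and SMAD2 lies at 0.30 without the correction and 0.07 with it.

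The other genes of the pathway were described from 8 lists chosen by role. Of their 106 genes 55 were tested, of which 8 rose and 12 fell, 36.4% in all, a share near the 35.4% of all tested genes. Of 29 genes listed as other ligands only 5 reached the level for testing, and none was called higher. BMP1, among these 5, encodes a protease rather than a ligand of the family, and it did not pass (log2 fold change 0.0007, limma adjusted p = 0.997). BMP8B, a bone morphogenetic protein (BMP), had 1.27, 1.32 and 1.32 FPKM in shTRMT6, against 1.87, 1.94 and 2.41 FPKM in shControl, and was called lower (log2 fold change -0.41, limma adjusted p = 0.0245). That call ended with the GC correction (adjusted p = 0.0726) and without shTRMT6 replicate 1 (0.0803) or 2 (0.0621) or shControl replicate 3 (0.129). The receptor of GDF15, GFRAL, was listed at 0 in all 6 libraries, and its co-receptor RET had at most 0.32 FPKM in shTRMT6 and 0.21 FPKM in shControl.

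Of 15 other receptors and co-receptors 9 were tested, of which 3 fell and none rose. The share called, 33.3%, was near the 35.4% of all tested genes, of which 16.1% were lower. The list's median log2 fold change was -0.13, against 0.02 over all tested genes. TGFBR3, or betaglycan, the co-receptor that presents TGF-beta to TGFBR2, had 0.52, 0.64 and 0.53 FPKM in shTRMT6, against 1.19, 1.52 and 1.63 FPKM in shControl (2.57-fold lower; log2 fold change -0.64, limma adjusted p = 0.00301). ENG, or endoglin, a second co-receptor, had 1.65, 1.17 and 1.94 FPKM in shTRMT6, against 3.18, 2.64 and 3.04 FPKM in shControl (1.86-fold lower; -0.62, adjusted p = 0.00483). ACVR1B, the type I receptor of activin, fell 1.45-fold (-0.49, adjusted p = 0.00921; 0.0537 without shTRMT6 replicate 1). The groups did not overlap for these 3 receptors. TGFBR3 averaged 1.005 FPKM over the 6 libraries and 0.563 FPKM in shTRMT6, so it reached the level for testing only through shControl. The other 6 tested receptors, among them BMPR1A and BMPR2, did not pass, though BMPR2 did under the GC correction (-0.38, adjusted p = 0.0227). The list held 5 lower genes under the GC correction and 7 when the replicate block was added to it.

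Among genes that process, store or activate the latent ligand, 8 of 13 were tested, of which 3 fell and none rose (median log2 fold change -0.29), 37.5% called against 35.4% of all tested genes. FURIN, the protease that cleaves the TGF-beta precursor, had 65.21, 60.09 and 75.64 FPKM in shTRMT6, against 105.34, 95.56 and 106.26 FPKM in shControl (1.53-fold lower; -0.61, limma adjusted p = 0.000843). The related convertase PCSK5 fell 1.68-fold (-0.52, adjusted p = 0.00684), and LTBP2, of the family of latent TGF-beta binding proteins, fell 1.35-fold (-0.41, adjusted p = 0.00575). LTBP1 and LTBP3, which bind latent TGF-beta, did not pass (log2 fold changes -0.33 and 0.03). LTBP1 passed with the replicate block (adjusted p = 0.03) and without shControl replicate 2 (0.0479). Of 10 genes listed as secreted or membrane inhibitors 3 were tested and none passed, while with no filter on low values 1 was called lower. The most abundant of the 3, TGFBRAP1, is an intracellular receptor-associated protein rather than a secreted or membrane inhibitor. Its log2 fold change was -0.02 (limma adjusted p = 0.873), with a sign that turned with the GC correction (0.0539).

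Of 4 other SMADs 3 were tested, of which SMAD5 and SMAD9, of the BMP branch, were called higher. The share called was 66.7% of only 3 genes, against 35.4% of all tested genes, of which 19.3% were higher. SMAD5 had 13.62, 18.15 and 14.16 FPKM in shTRMT6, against 9.08, 13.66 and 9.32 FPKM in shControl, where replicate 2 is the highest in both groups and the groups overlap (1.43-fold higher; log2 fold change 0.49, limma adjusted p = 0.0238). SMAD9 had 2.58, 2.61 and 2.16 FPKM in shTRMT6, against 1.29, 1.8 and 1.86 FPKM in shControl (1.49-fold higher; 0.39, adjusted p = 0.042). SMAD1, of the same branch, did not pass (0.28, adjusted p = 0.0664), but did with the replicate block (0.0428), and the inhibitory SMAD6 had at most 0.12 FPKM in shTRMT6 and 0.1 FPKM in shControl. The calls of SMAD5 and SMAD9 ended with the GC correction (adjusted p = 0.13 for SMAD5 and 0.107 for SMAD9). The SMAD5 call also ended without shTRMT6 replicate 2 (0.105) or shControl replicate 1 (0.083) or 3 (0.0711), and the SMAD9 call without shTRMT6 replicate 1 (0.132) or 2 (0.126) or shControl replicate 1 (0.101) or 3 (0.0547).

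Among proteins that act on receptors and SMADs, 4 of 16 tested genes were higher and 3 lower (43.8% called, against 35.4% of all tested genes), with a median log2 fold change of 0.13. SKIL, a co-repressor that binds SMADs and is itself induced by TGF-beta, had 2.04, 2.43 and 2.12 FPKM in shTRMT6, against 0.84, 1.4 and 1.24 FPKM in shControl (1.89-fold higher; 0.57, limma adjusted p = 0.00699). USP15, a deubiquitinase of the receptor complex, rose 1.54-fold (0.59, adjusted p = 0.00983), and WWP1, a ubiquitin ligase that acts with SMAD7, rose 1.52-fold (0.58, adjusted p = 0.00383). Under the GC correction the log2 fold changes were 0.28 for SKIL (adjusted p = 0.0468), 0.33 for USP15 (0.0482) and 0.33 for WWP1 (0.00526). The 3 lower genes were FKBP1A, which binds the type I receptor, TGIF2, a co-repressor, and SMURF2, a ubiquitin ligase, at 1.23-fold to 1.29-fold; these were chosen after their values were seen. None of the list was lower without shTRMT6 replicate 2 or with no filter on low values, and 1 gene was lower without shTRMT6 replicate 1 or 3 or shControl replicate 2, under quantile normalization or with a variance prior without a trend.

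Genes known to be induced by TGF-beta were called in both directions. Of 14 listed, 9 were tested, of which 2 fell, ANGPTL4 among them, and 1, SKIL, rose (median log2 fold change 0.03), 33.3% called against 35.4% of all tested genes. ANGPTL4, an inhibitor of lipoprotein lipase, had 50.38, 46.24 and 65.82 FPKM in shTRMT6, against 85.84, 84.83 and 89.35 FPKM in shControl (1.60-fold lower; log2 fold change -0.68, limma adjusted p = 0.00101). shTRMT6 replicate 3 was the highest of its group and still below every control. CCN2, JUNB, CDKN2B, TAGLN, IL11 and VIM did not pass. The list held 2 higher genes without shControl replicate 1 or under the GC correction, which added TAGLN (0.36, adjusted p = 0.0216), and 3 under that correction with the block.

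Genes induced by BMP held the largest log2 fold changes of the TGF-beta and BMP lists, in ID1 and ID3, which encode inhibitors of basic helix-loop-helix factors. ID1 had 14.45, 12.55 and 12.13 FPKM in shTRMT6, against 4.18, 3.69 and 3.54 FPKM in shControl (3.43-fold higher; log2 fold change 1.55, limma adjusted p = 3.03e-06). ID3 had 41.0, 41.41 and 32.76 FPKM in shTRMT6, against 17.47, 15.7 and 12.89 FPKM in shControl (2.50-fold higher; 1.27, adjusted p = 3.2e-05). The lowest shTRMT6 library of each lay far above the highest control. Of 6 genes in the list 3 were tested, and ID2 did not pass (0.10, adjusted p = 0.648). The share called was 66.7% of only 3 genes, against 35.4% of all tested genes, of which 19.3% were higher.

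**Figure D4:**
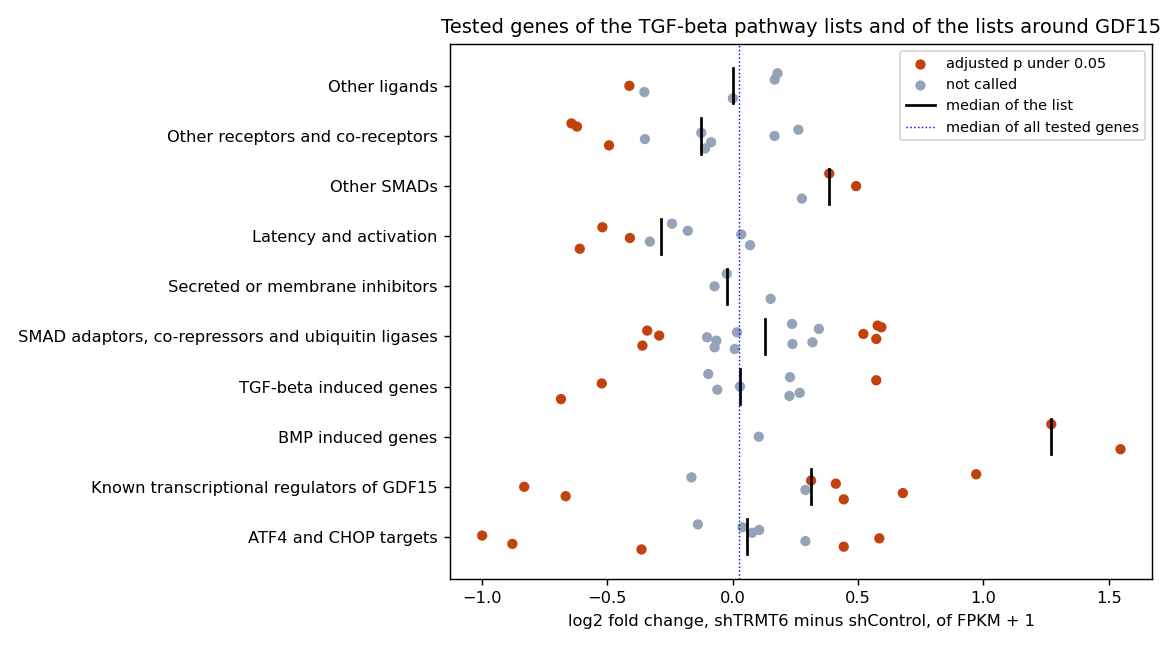
Log2 fold change of FPKM + 1, shTRMT6 minus shControl, of every tested gene in 10 lists; orange points passed an adjusted p of 0.05, grey points did not, black bars are list medians, the dotted line is the median of all tested genes, and vertical offsets only separate the points. ID1 and ID3 lie at 1.55 and 1.27, and receptors and latency genes reach down to -0.64.

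The transcription factors known to act on GDF15 were all measurable, and 5 of 9 rose and 2 fell. The share called was 77.8%, against 35.4% of all tested genes, of which 19.3% were higher and 16.1% lower. CEBPB, a leucine zipper factor, rose 1.62-fold (log2 fold change 0.68, limma adjusted p = 0.00263), while EGR1, an immediate early factor, had 17.07, 13.71 and 15.35 FPKM in shTRMT6, against 30.02, 26.18 and 28.03 FPKM in shControl (1.83-fold lower; -0.83, adjusted p = 0.000173). ATF4, the main factor of the integrated stress response, had 148.11, 145.71 and 140.07 FPKM in shTRMT6, against 236.72, 228.17 and 225.24 FPKM in shControl (1.59-fold lower; -0.67, adjusted p = 0.000141). ATF4, the second of the genes that fell, was picked with its value known; it is controlled largely through translation, which mRNA levels do not read. Only 2 of the 9 were higher without shTRMT6 replicate 1, and 3 without shTRMT6 replicate 2 or shControl replicate 2 or 3.

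GDF15 is itself a target of ATF4 and CHOP, and other targets of that pair moved both ways. Of 10 tested targets of ATF4 and CHOP 2 rose and 3 fell (median log2 fold change 0.06), 50.0% called against 35.4% of all tested genes. PHGDH, which opens serine synthesis, fell 2.04-fold (-0.999, limma adjusted p = 7.1e-05) and CHAC1, which degrades glutathione, fell 2.38-fold (-0.88, adjusted p = 0.00722), though shControl replicate 1 read 7.58 FPKM and the other controls 4.4 and 2.92 FPKM. DDIT4, an inhibitor of mTOR signalling, was called higher (0.58, adjusted p = 0.0313), but not without shTRMT6 replicate 1 (0.0719) or 3 (0.0954) or shControl replicate 2 (0.0566) or 3 (0.125). None of this list was higher without shTRMT6 replicate 1 or 3 or shControl replicate 2. The same held with no filter on low values and under quantile normalization. Only 1 gene was higher without shControl replicate 3 or with the filter of 5 FPKM, but 3 under the GC correction or the replicate block. With that correction and the block together 4 were higher.

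The 4 tested genes whose profile over the 6 libraries was nearest to that of GDF15 were ACTA2, AHNAK2, H2BC15 and BTG2. Likeness was the root mean square distance of log2(FPKM + 1) after each gene's mean was subtracted. It ran from 0.0918 for ACTA2 to 0.139 for BTG2, against a median of 0.581 over all tested genes. With 2 groups the distance follows mostly from the size of the group difference, so that median mainly restates the change of GDF15. The 4 genes had log2 fold changes of 0.95 to 1.14, against 1.12 for GDF15. ACTA2, smooth muscle alpha actin, had 2.75, 2.55 and 3.14 FPKM in shTRMT6, against 0.73, 0.92 and 0.68 FPKM in shControl, and BTG2, an antiproliferative gene, had 21.59, 21.21 and 21.32 FPKM in shTRMT6, against 8.87, 9.26 and 9.27 FPKM in shControl. H2BC15, a replication-dependent histone gene, belongs to a family of near-identical copies, so its fragments may be divided among them with error. In FPKM, ACTA2 rose 3.62-fold, H2BC15 3.75-fold, AHNAK2 2.41-fold and BTG2 2.34-fold, against 2.27-fold for GDF15. The likeness of ACTA2 and H2BC15 thus belongs to the log2(FPKM + 1) scale, which understates the change of low genes. In shControl ACTA2 averaged 0.777 FPKM and H2BC15 0.62 FPKM, so both reached the level for testing only through shTRMT6.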

How the data were processed

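RNA was sequenced in 3 shTRMT6 and 3 shControl libraries of RKO cells. Per the file headers, the deposited values are FPKM by gene and library. RSEM, StringTie 1.3.1, HISAT2, Bowtie2 2.2.8 and fastp 0.18.0 appear in the submitters' processing notes with no role, and neither a genome build nor an annotation is given in the sources used here. The columns are headed NC and SH; NC was read as the control hairpin and SH as the TRMT6 hairpin, with the replicate number shared by column and title. Since FPKM are not counts, no count model was used, and depths were estimated from steps of low values in genes with 1 transcript of at most 1000 bases, searched between 12 and 30 M fragments. They are rough, rest on 60 to 69 values each, and are least clear for shControl replicate 2 (mean distance from whole fragments 0.21, against a median of 0.2336 over the search).

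Differences are shTRMT6 minus shControl from limma 3.58.1 (R 4.3.3) on log2(FPKM + 1), trended variance prior, two-sided, adjusted by Benjamini-Hochberg over all 10592 genes that averaged 1 FPKM or more; limma was also tested on simulated data. Every adjusted p of a gene is from this model. The members and lists were chosen with earlier results of these data known. Genes named beyond the members were the up to 3 called genes of largest absolute fold per list, or the most abundant where none was called, and the genes nearest to GDF15; some genes and 1 list that the rule took in are not reported here, though counts over lists include those genes.

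Deviations from the group mean correlated at 0.206, 0.364 and 0.17 between libraries of the same replicate number (-0.288 to 0.0936 between others). Each same-number correlation lay over 0.1, so the libraries may be paired by number, though what the number marks is not in the labels. The main model leaves this pairing out. With a replicate block 4954 of all tested genes were called, against 3746 without it. A fit with the replicate block was an alternative, as were other pseudocounts (0.1, 0.5), filters (none, 5 FPKM), scalings and variance priors, removal of each library's lowess trend on transcript GC content, and leaving out each library. Symbols came from a gene name table (20257 identifiers) and GENCODE release 29 (30), start sites and sequences from RefSeq (GRCh38.p14); all 10 members matched.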

Additional observations from a re-analysis of the deposited data

How the results depend on the processing

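GDF15 and TGFBR2 kept their direction and passed the threshold under every alternative that gave a value (17 for GDF15, with adjusted p from 5.18e-11 to 0.00446 by limma, and 16 for TGFBR2, 5.95e-07 to 0.00662; TGFBR2 is under the filter of 5 FPKM). The log2 fold change of GDF15 ran from 1.00 to 1.20 over left-out libraries. The number of members called was 2 to 3 over left-out libraries and 2 to 4 over the other settings, 4 with the replicate block, which added TGFBR1. Over all tested genes, 2407 to 3618 were called with 1 library left out, 1295 to 2027 higher and 1112 to 1731 lower, against 3746, 2042 and 1704 with all; 2637 were lower under the GC correction with the replicate block. Quantile normalization called 1971 higher and 1930 lower, and the GC correction 2088 and 2058. Of 55 tested genes in the TGF-beta and BMP lists 20 were called (36.4%, against 35.4% of all tested genes), 14 to 21 with 1 library left out, 26 with the replicate block and 28 with the GC correction and the block. The sign turned for TGFB1 under the GC correction without and with the block (0.0067 in both); for SMAD3 under quantile normalization (-0.0479), median-of-ratios scaling (-0.0142), without shTRMT6 replicate 1 (-0.1388) and without shControl replicate 3 (-0.0509), in a range of -0.1388 to 0.1204 over left-out libraries; and for TGFBRAP1 under the GC correction without and with the block (0.0539 in both) and without shTRMT6 replicate 2 (0.0044), in a range of -0.0452 to 0.0044. None of these had passed, and the cause was not tested. Without a filter on low values the calls of SMAD5, SMAD9, CHAC1, USP15 and DDIT4 ended (adjusted p = 0.101, 0.064, 0.0657, 0.0631 and 0.14), with more genes tested. The SKIL call ended under the GC correction with the replicate block (0.0552) and that of DDIT4 under quantile normalization (0.0857); the block alone ended no call of a named gene, added SMAD1 and LTBP1 among the named genes outside the members (0.0428 and 0.03) and changed no other call of a member. Values near 1 FPKM, as for SMAD3, SMAD7 and TGFBR3, rest on fewer fragments than higher values of genes of like length, and depth itself is only roughly known.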
